A study of Mus musculus with 2 samples.

Results

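The genes described here are 10 transcripts of the cellular stress programme run by the transcription factors ATF4 and CHOP: Atf4, Atf5, Ddit3, Atf3, Trib3, Ppp1r15a, Sesn2, Ddit4, Chac1 and Asns. They were chosen by symbol among the non-control probes of a mouse whole-genome expression array, which gave 11 probes for the 10 genes out of 55681 gene probes. All 10 were well above background on both arrays and thus belong to the 22139 genes counted as measured. The samples were labelled as beta cells, the insulin-producing cells of the pancreatic islet, and came from 6-month-old C57BL/6J mice that were fed a high-fat diet. RNA of wild-type animals (CSE-WT, the control) was on one array and RNA of CSE knockout animals (CSE-KO) on the other. CSE, cystathionine gamma-lyase, is the transsulfuration enzyme encoded by Cth that makes cysteine and hydrogen sulfide. The sources used here do not give the number of animals per sample, how the cells were isolated, or in which cells Cth was deleted. With 1 array per genotype there is no replicate check and nothing could be tested, so each value describes these 2 RNA samples.

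In the integrated stress response, kinases that sense misfolded protein in the endoplasmic reticulum, amino acid shortage, haem deficiency or double-stranded RNA phosphorylate the translation factor eIF2. General translation then falls while ATF4 is translated more, because upstream open reading frames in its messenger hold it back in unstressed cells. Therefore the level of Atf4 RNA does not give the amount of ATF4 protein. ATF4 switches on genes of amino acid supply and, with CHOP (encoded by Ddit3), genes of feedback control and cell death. Beta cells carry a heavy load of proinsulin synthesis, and this response is well known from them under metabolic stress. ATF4 and its C/EBP partners bind a composite DNA element known as CARE.

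The core of that element, written TGATGNAA with N for any base, was searched on both strands from 250 bases before to 50 bases after each gene's start (RefSeq, GRCm38.p6). It was found in 4 of the 10 genes and in 4.51% of all 27025 genes with such a window. The stretches that hold it are shown because they include the genes with the highest and the lowest difference between the arrays, with the core in capitals.
Trib3, chr2:152344028-152344057, minus strand, 30 bases: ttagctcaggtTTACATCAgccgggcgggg
Chac1, chr2:119351023-119351082, plus strand: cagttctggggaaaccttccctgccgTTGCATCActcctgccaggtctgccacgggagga
Asns, chr6:7693210-7693269, minus strand: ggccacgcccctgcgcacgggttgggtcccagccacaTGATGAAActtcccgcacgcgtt
Atf3, chr1:191183410-191183469, minus strand: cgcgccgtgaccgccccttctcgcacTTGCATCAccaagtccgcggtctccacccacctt
In Trib3, Chac1 and Atf3 the core lies on the opposite strand, and in Asns on the gene's own strand. It begins 193 bases before the start in Chac1, 110 in Atf3 and 23 in Asns, and in Trib3 it lies at bases 15 to 22 after the start. A full cyclic AMP response element, TGACGTCA, was found in 1 of the 10 genes, Ppp1r15a, and in 2.03% of all genes. Its near form TNACGTCA, which includes the full one, added Atf3 and was in 3.36% of all genes. They are shown because these are the 2 genes with the full or near cyclic AMP response element, which lies directly before the start in both.
Ppp1r15a, chr7:45526269-45526328, minus strand: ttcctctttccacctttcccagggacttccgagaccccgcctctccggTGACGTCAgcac
Atf3, chr1:191183334-191183393, minus strand: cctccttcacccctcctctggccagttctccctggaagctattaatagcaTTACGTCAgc
A match is a description of these letters and no evidence of binding, and an element outside the window would not be seen. The element of the other branches of the unfolded protein response, ERSE (CCAAT, 9 free bases, then CCACG), was in none of the windows of the 10 genes (11 windows, since Atf5 has 2 listed starts) and in 0.137% of genes.

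The probes were oligonucleotides of 60 bases. Of the 11, 4 held the polyadenylation signal letters AATAAA (in capitals below), against 10.1% of all gene probes. These stretches of 30 bases are shown because such letters often lie near the end of a transcript, though transcript ends were not looked up here.
Trib3: catcatgtgcccAATAAAagagagctgtgt
Asns: ggcatgaaaagaAATAAAagtttcacatct
Atf5: gttatgggcacaAATAAAatgcagattttc
Atf4: tgctgtgtttgctgtAATAAAttattttgt
Atf4 had a second probe that begins at base 504 of the transcript, against base 1655 for the one above. The Ddit3 probe covers 304 positions of the genome with its 60 bases, so it crosses a splice junction. Neither of these 2 probes holds the letters AATAAA. The same is true of the probes of Atf3, Chac1, Ddit4, Ppp1r15a and Sesn2, which are not shown. The second Atf4 probe and the Ddit3 probe are shown whole for their position and splice junction.
Atf4: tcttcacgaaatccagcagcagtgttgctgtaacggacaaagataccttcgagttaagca
Ddit3: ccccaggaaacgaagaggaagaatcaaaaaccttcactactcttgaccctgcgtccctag
Probe positions below follow the mm9 coordinates in the array files. No mm9 gene annotation was used here, so the exon or UTR of each probe was not determined.

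The 10 genes did not differ in 1 direction. Trib3 and Chac1 were clearly higher on the CSE-KO array, Ddit4 and Ppp1r15a were higher by less, and Asns and Atf5 were lower. Atf4 was slightly higher by both of its probes, and Ddit3, Atf3 and Sesn2 differed by less than 2 spot SDs, a technical error explained below. In all, 7 were higher and 3 lower, where 48.7% of all measured genes were higher and 51.3% lower. Their median difference, CSE-KO minus CSE-WT on the log2 scale after each array was set to its 75th percentile, was 0.15, against -0.0061 over all measured genes. None reached 2-fold, a size that 1.61% of measured genes reached in either direction (0.718% higher and 0.89% lower, or 159 and 197 genes, against 36 and 97 with normexp background correction). At a size of 1.2-fold, 3 were higher (Trib3, Chac1 and Ddit4) and 2 lower (Asns and Atf5). Of all measured genes 12.4% were that much higher and 10.6% that much lower. Differences of at least 1.2-fold were rarer among well-expressed genes. Above the median level, where 9 of the 10 lay, these shares were 5.11% and 5.55%. At that level 44% of genes were higher by any amount and 0.154% reached 2-fold.

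**Figure D1:**
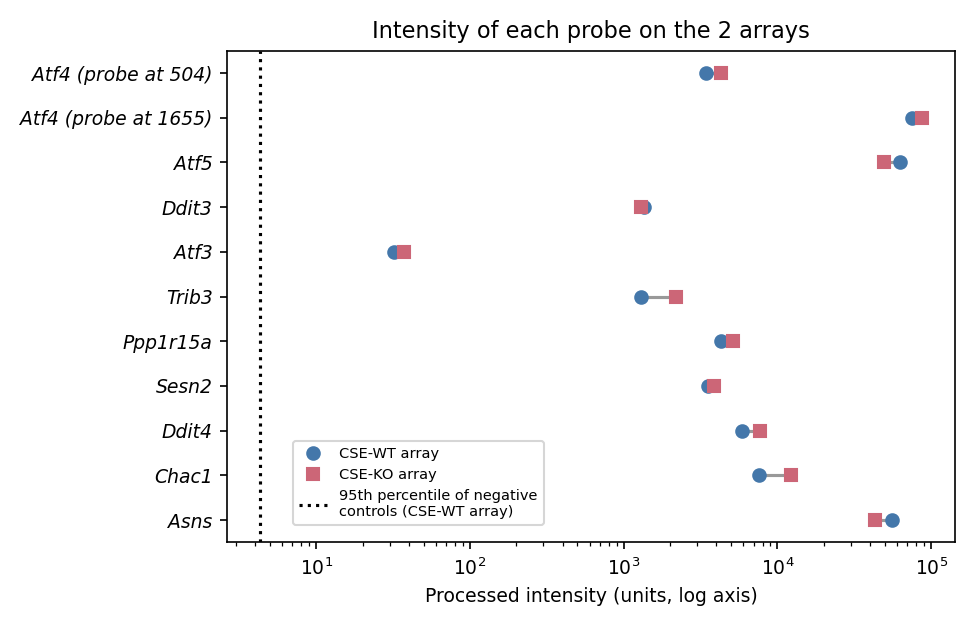
Processed intensity of each of the 11 probes on the CSE-WT array (circles) and the CSE-KO array (squares), on a log axis in fluorescence units, with 1 spot per probe and array. The dotted line is the 95th percentile of 308 negative-control spots on the CSE-WT array (4.32 units), and every probe lies above it. The widest gaps to the right are those of Trib3 and Chac1, and Asns and Atf5 are the genes with a visible gap to the left.

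Intensities of different probes depend on their sequence and are not compared with each other here. The technical error of each difference came from 399 probes with 10 spots each per array, whose spot-to-spot SD was taken at a like level. This error reflects only how far spots of the same probe scatter on the same array. Differences between the arrays in labelling, hybridisation or scanning are not part of it, nor are those between animals or preparations. A difference of many spot SDs can therefore still hold such array effects. By more than 3 of these spot SDs, 4 of the 10 genes were higher (Trib3, Chac1, Ddit4 and Ppp1r15a) and 2 were lower (Asns and Atf5). Of all measured genes 8.71% passed this mark upwards and 9.78% downwards, and among those above the median level 9.86% and 13.7%.

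Among the transcription factors, Atf4, the central activator of the response, was slightly higher on the CSE-KO array by both probes. Its probe at base 1655 (chr15:80087902-80087961, plus strand) gave 75586 units in CSE-WT and 86741 in CSE-KO. After scaling of the arrays this was a difference of 0.14 log2 units and 2.70 times the spot SD. Among 318 other genes of that probe's level, 10 were at least as far above 0, and the 95th percentile was 0.11. Its other probe (chr15:80086639-80086698) gave 3435 and 4299 units, a difference of 0.27 and 4.95 times the spot SD. Both probes thus placed Atf4 higher on the CSE-KO array, by amounts that differed from each other by about as much as probes of 1 gene usually did (median SD between probes 0.11 log2 units over 5918 genes).

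Atf5, a relative of ATF4 that is likewise controlled through upstream open reading frames and is linked to the mitochondrial stress response, was lower. Its probe (chr7:52067627-52067686, minus strand) gave 63106 units in CSE-WT and 49077 in CSE-KO. The difference was -0.42 log2 units, 1.34-fold lower, and 7.89 times the spot SD. Among the 431 other genes within 0.5 log2 units of its level, 1 was at least as far below 0, and their 5th to 95th percentiles ran from -0.21 to 0.14. The 8 spots touching the Atf5 spot had a median difference of -0.43, close to its own, and a median drop of 5.09 units. Their median intensity was 19.0 units in CSE-WT and 10.2 in CSE-KO. The 25 brighter gene spots within 5 rows and columns had a median of -0.033. Whether a local effect on the slide has a part in the Atf5 difference was not tested.

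Ddit3, which encodes CHOP, and Atf3, a stress-induced factor that acts with CHOP, did not differ beyond spot noise. The Ddit3 probe (chr10:126732518-126732821, plus strand) gave 1353 units in CSE-WT and 1295 in CSE-KO. Its difference was -0.12, or 1.75 times the spot SD. The Atf3 probe (chr1:192994547-192994606, minus strand) was dim, at 32.1 and 37.0 units, and its difference of 0.15 was 0.541 times a spot SD of 0.28. A change of the size seen in Trib3 could have been seen in Ddit3 at its spot SD of 0.068, while for Atf3 the same size would be under 3 spot SDs.

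**Figure D2:**
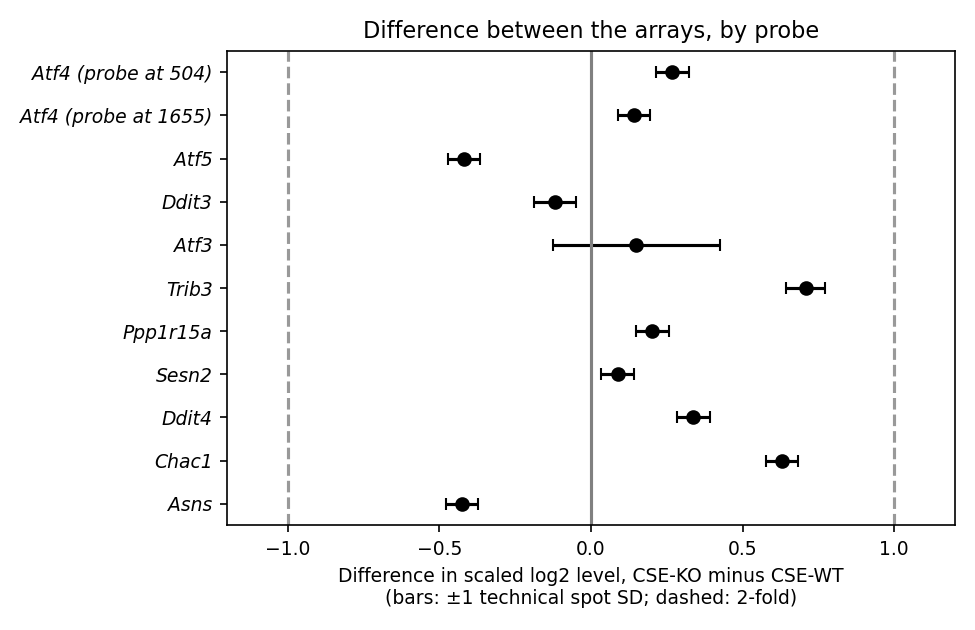
Difference in scaled log2 level, CSE-KO minus CSE-WT, for each of the 11 probes, with bars of 1 technical spot SD on each side and dashed lines at 2-fold. Trib3 (0.71) and Chac1 (0.63) lie farthest to the right and Asns (-0.43) and Atf5 (-0.42) farthest to the left, and no probe reaches a dashed line.

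Trib3 and Ppp1r15a act in feedback. Trib3 encodes a pseudokinase that ATF4 and CHOP induce and that restrains both. It also binds the insulin-signalling kinase AKT. It had the largest difference of the 10. Its probe (chr2:152163161-152163220, minus strand) gave 1296 units in CSE-WT and 2200 in CSE-KO. The difference was 0.71 log2 units, or 1.63-fold, and 10.9 times the spot SD. Among the 2439 other genes of like level, 10 were at least as far above 0, and the 95th percentile was 0.29. In all, 802 measured genes had a larger absolute difference, but of the 356 past 2-fold 17 lay above the median level. Ppp1r15a, known as GADD34, directs a phosphatase to eIF2 and so ends the response. Its probe (chr7:52778320-52778379, minus strand) gave 4300 and 5143 units, a difference of 0.20, or 1.15-fold, and 3.79 times the spot SD. This lay inside the range of other genes of like level, whose 95th percentile was 0.24.

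Sesn2 and Ddit4 both lower the activity of the growth kinase complex mTORC1. Ddit4, also called REDD1, was higher on the CSE-KO array: its probe (chr10:59412486-59412545, minus strand) gave 5850 units against 7684. The difference was 0.34, or 1.26-fold, and 6.34 times the spot SD, above the 95th percentile of 0.23 for genes of like level. Sesn2, a leucine-binding sestrin, gave 3521 and 3891 units (chr4:132048858-132048917, minus strand). Its difference of 0.089 was 1.62 times the spot SD, and 464 of 2102 genes of like level were at least as far above 0. The 2 genes thus did not differ by a like amount.

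Chac1 and Asns are the metabolic enzymes of the set and went opposite ways. Chac1 encodes an enzyme that breaks down glutathione, the thiol whose synthesis needs cysteine. Its probe (chr2:119179990-119180049, plus strand) gave 7616 units in CSE-WT and 12239 in CSE-KO. The difference was 0.63 log2 units, or 1.55-fold, and 11.8 times the spot SD. Of 1229 other genes of like level, 3 were at least as far above 0. Asns, asparagine synthetase, is a standard ATF4 target in amino acid shortage. Its probe (chr6:7625171-7625228, minus strand) gave 55683 units against 43065, a difference of -0.43, or 1.34-fold lower, and 8.04 times the spot SD. Of 488 other genes of like level, 1 was at least as far below 0. The 4 genes with the CARE core therefore spanned the whole range of the set, from 0.71 in Trib3 and 0.63 in Chac1 through 0.15 in Atf3 to -0.43 in Asns.

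**Figure D3:**
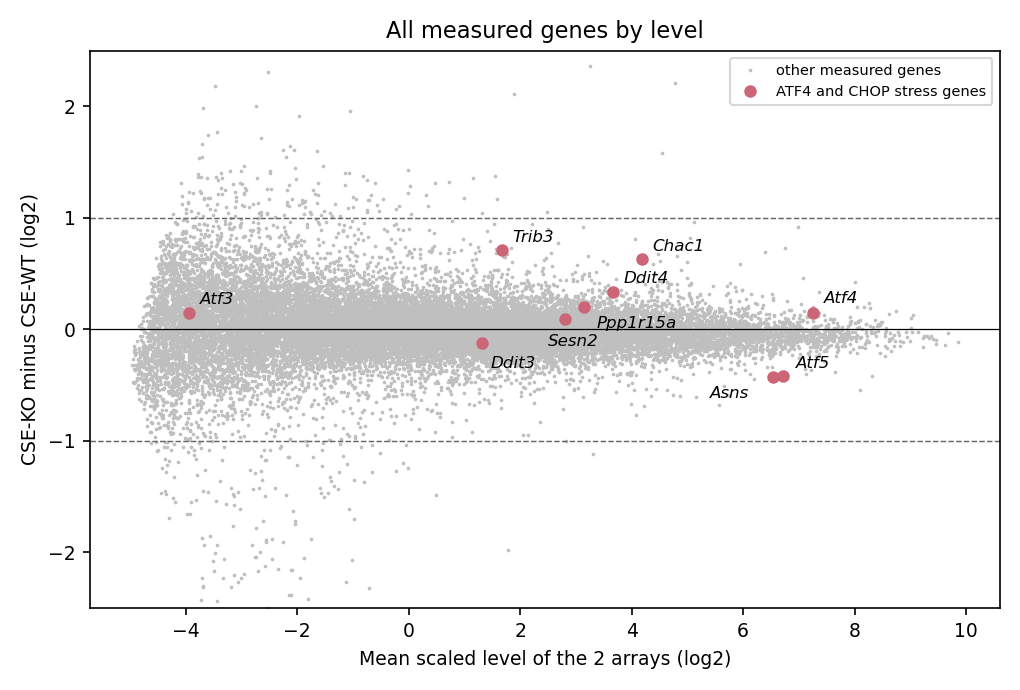
Difference (CSE-KO minus CSE-WT, log2) against mean scaled level of the 2 arrays (log2) for the 22139 measured genes (grey) and the 10 stress genes (red), with dashed lines at 2-fold. The plot is limited to differences within 2.5 log2 units, which leaves out 45 genes. Trib3, Chac1, Asns and Atf5 lie at the edge of the grey cloud at their level, while Sesn2, Ddit3 and Atf3 lie inside it.

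The sign of each of the 10 differences held under all 9 alternative ways of processing, including the authors' deposited table. In that table Trib3 was 1.65-fold and Chac1 1.58-fold higher in the CSE-KO column, and the ratio of CSE-KO to CSE-WT was 0.767 for Asns and 0.782 for Atf5. Several of the 9 alternatives had no way to turn a sign. Dropping patch probes or the dim-probe filter changed none of the 10 values, and averaging a gene's probes changed only that of Atf4. Keeping outlier spots moved the array scaling alone. None of the 11 probes lay in a local patch of the slide, defined as a median difference above 0.5 log2 units over the 8 touching spots. The touching spots had a median of -0.29 around Ddit4, which was itself higher, and of -0.24 around Asns. Brighter gene spots nearby had medians between -0.046 and 0.015 around the 11 probes. No spot of the 10 genes was flagged as an outlier or saturated.

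**Figure D4:**
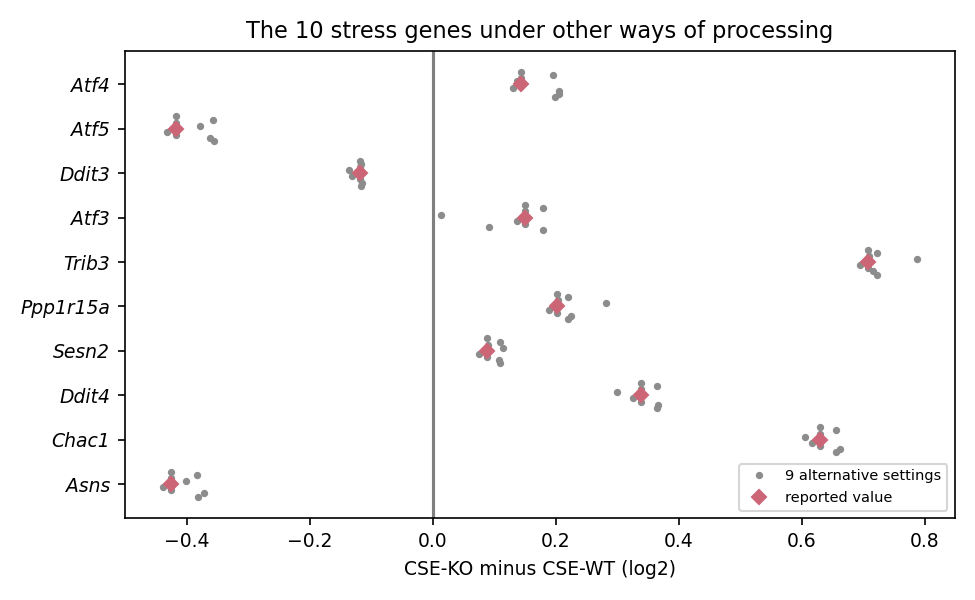
Difference of each of the 10 stress genes (CSE-KO minus CSE-WT, log2) as reported (diamonds) and under the 9 alternative settings (grey points). Every gene stays on its side of 0, and Atf3 comes closest to it, at 0.013 with normexp background correction.

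Related genes of the response, in 7 lists of 106 genes with 100 measured, place the 10 genes within the response. Over these 100 genes 38 were higher and 62 lower, and 16 were higher and 23 lower by more than 3 spot SDs. Over all measured genes 48.7% were higher, and 8.71% were higher and 9.78% lower by that much (9.86% and 13.7% above the median level). Their median was -0.055, below that of the 10 stress genes.

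Enzymes of amino acid and one-carbon folate metabolism that ATF4 is known to induce, the class to which Asns belongs, were mostly lower on the CSE-KO array. Of 13 measured 9 were lower, 8 of them by more than 3 spot SDs, and 4 were higher, 3 of them by that much (median -0.34), where 9.78% of all measured genes were lower and 8.71% higher to that extent. The serine synthesis enzyme Psat1 gave 3194 and 1715 units (-0.95) and the mitochondrial folate enzyme Aldh1l2 gave 2975 and 1601 units (-0.95). Shmt2, which passes one-carbon units from serine to folate in mitochondria, was lower (-0.53), as was Phgdh, the first enzyme of serine synthesis (-0.50). Gpt2, an alanine aminotransferase, was higher (0.48). Cth itself is in this list and was not flagged well above background on either array, at 13.5 and 12.8 units in CSE-WT and 3.15 and 3.68 in CSE-KO, so it is not counted as measured. The 95th percentile of the negative-control spots was 4.32 units in CSE-WT and 3.43 in CSE-KO. Whether the deletion covers the sequence of these probes was not determined.

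Amino acid transporters induced by ATF4 were mixed, with 4 higher and 6 lower of 10 measured (median -0.014, between -0.045 and -0.0053 over the alternatives). By the brightest probe of each gene, Slc7a3, a transporter of cationic amino acids, was the only one of the 7 lists past 2-fold. It gave 289 and 108 units (2.76-fold lower). Slc38a2, which carries small neutral amino acids, was higher by 0.35 log2 units, the glycine transporter gene Slc6a9 by 0.33 and the cationic transporter gene Slc7a1 by 0.27. All 3 passed 3 spot SDs, and Slc7a11, the cystine importer, missed the flag for signal well above background on both arrays. The list of aminoacyl-tRNA synthetases, which load amino acids onto tRNA, also holds the tRNA exporter Xpot (-0.18). Of its 13 genes 9 were lower, Xpot among them, 5 of these by more than 3 spot SDs, with Mars1 at -0.30, Lars at -0.23 and Iars higher at 0.24. Eprs, at -0.24, had its probe in a local patch. Xpot, Wars and Aars each had probes of opposite sign (Xpot at -0.18 and 0.13), and the counts follow the brightest probe. Beside both lists, 48.7% of all measured genes were higher and 51.3% lower, 8.71% and 9.78% by more than 3 spot SDs. The median of the synthetase list was -0.13, but -0.070 with cyclic loess and -0.026 with the mean of all probes of a gene.

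By the brightest probe of each gene, the sensors and the eIF2 machinery upstream of ATF4 differed by small amounts, with 13 of 15 lower (median -0.059). Of these 3 passed 3 spot SDs: the eIF2 subunits Eif2s3x (-0.30) and Eif2s1 (-0.25) and the exchange-factor subunit Eif2b3 (-0.27). Probes disagreed for the kinase gene Eif2ak4, whose 3 measured probes ran from -0.11 to 1.09. Those of Eif2s2 ran from -0.11 to 0.23. Both genes are counted as lower. Over all measured genes 51.3% were lower, 9.78% by more than 3 spot SDs (13.7% above the median level). Ppp1r15b, the constitutive partner of Ppp1r15a, was at 0.16. The list of other ATF and C/EBP factors also holds CREB factors, Nupr1, Nfe2l1 and Nfe2l2, which act with or beside them. Its genes were higher in 7 and lower in 9 of 16 (median -0.053, whose sign turned with the mean of all probes of a gene, to 0.037). Cebpd, a C/EBP factor of the acute-phase response, gave 3539 and 2062 units (1.78-fold lower). Nupr1, a small stress-induced chromatin protein, gave 34026 and 23461 units (1.51-fold lower), whereas Jdp2 (0.39) and Atf6 (0.21) were higher.

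Other target genes of ATF4 or CHOP were lower in 10 of 16 measured (median -0.10, between -0.14 and -0.063 over the alternatives). Of these 4 were lower and 1 higher by more than 3 spot SDs. Over all measured genes 51.3% were lower, and 9.78% were lower and 8.71% higher by that much (13.7% and 9.86% above the median level). The death receptor gene Tnfrsf10b gave 217 and 129 units (-0.81), and Vldlr (-0.21), a lipoprotein receptor gene, was also lower. Bbc3, which encodes the cell death protein PUMA, gave 900 and 1172 units (0.33), and Pmaip1 was at 0.45 but within 1.64 spot SDs. Bcl2l11, a CHOP target that encodes BIM, was flagged well above background on the CSE-WT array alone, at 25.0 units against 18.7.

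Genes of the IRE1 and ATF6 branches, the other arms of the unfolded protein response, were higher in 11 of 17 (median 0.10). By more than 3 spot SDs 6 were higher and none lower. Over all measured genes 48.7% were higher, with 8.71% higher and 9.78% lower by that much (9.86% and 13.7% above the median level). Derl3, which acts in degradation of misfolded glycoproteins, gave 9068 and 15087 units (1.60-fold higher). Edem1, of the same degradation route, was 1.35-fold higher, the disulfide isomerase gene Pdia4 1.22-fold and the chaperone gene Hyou1 1.21-fold. The 6 lower genes reached -0.14 at the lowest. Hspa5 (0.031) and Xbp1 (-0.045), also in this list, stayed within 1 spot SD. The signs of these medians held over the 9 alternatives in each list other than the ATF and C/EBP factors.

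**Figure D5:**
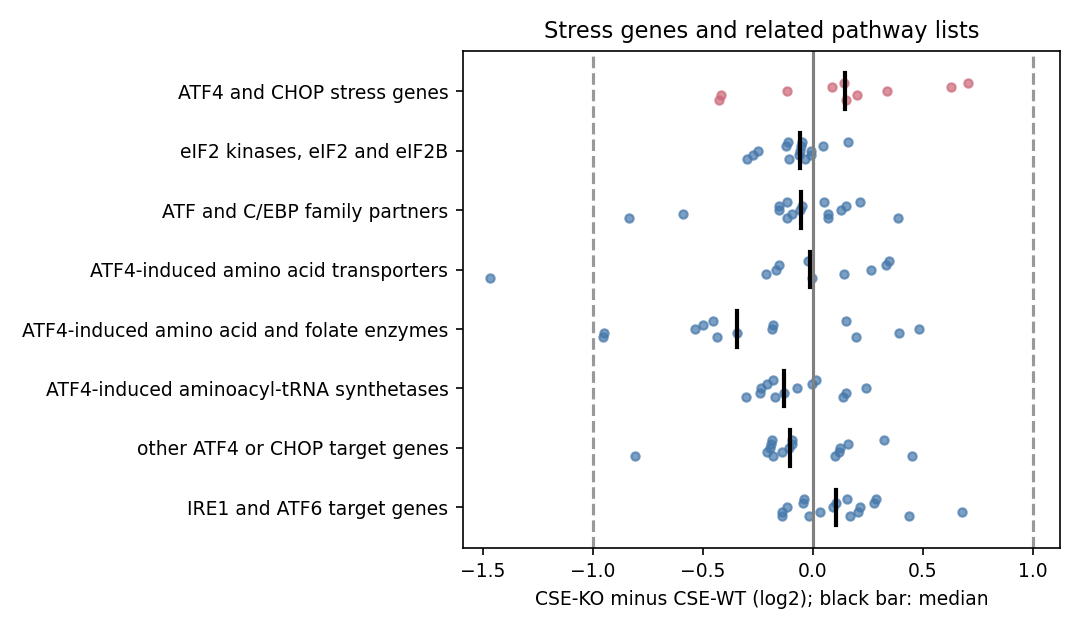
Difference (CSE-KO minus CSE-WT, log2) of each measured gene in the set of 10 (red) and in the 7 related lists (blue), with a black bar at the median of each list and dashed lines at 2-fold. The list of amino acid and folate enzymes has the lowest median (-0.34), and the 10 stress genes have the highest (0.15), followed by the IRE1 and ATF6 targets (0.10).

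The samples held RNA of several cell types. All 10 beta-cell markers were measured, with Ins1 and Ins2 at -0.12 and -0.06, and their summed scaled level (log2 of the sum over markers) was 11.4 in CSE-WT and 11.3 in CSE-KO. Of the 10, 4 were higher and 6 lower. All 8 markers of other endocrine cells were measured too (Gcg at -0.14, summed level 10.72 and 10.61). Of these 2 were higher and 6 lower, with differences from -0.66 to 1.33, a spread that the summed level does not show. All 8 acinar markers were measured as well (Amy2a5 at -0.42, Cpa1 at 0.0078, summed level 9.66 and 9.59). Of these 5 were higher and 3 lower, with differences from -2.24 to 0.46. Macrophage markers were higher in 8 of 8 (Cd68 at 0.30, Adgre1 at 0.13), with a summed level of 4.77 and 5.14. Fibroblast and stellate markers were higher in 4 of 4 measured of 6 (Col1a1 at 0.84, Col1a2 at 0.44), with a summed level of 1.14 and 1.74. Pdgfra was not well above background, and Lum was so in CSE-KO alone. Endothelial markers (Pecam1 at 0.12, Cdh5 at 0.13, summed 5.52 and 5.50) were measured in 4 of 4. Of these 2 were higher and 2 lower, with differences from -0.071 to 0.13. Ductal markers were measured in 3 of 4 (Krt19 at 0.23, Krt7 at -0.26, summed 3.74 and 3.57), and Sox9 was not well above background. Of the 3 measured, 2 were higher and 1 lower, with differences from -0.26 to 0.53. Erythroid markers were lower in 3 of 3 measured of 4 (Hbb-b2 at -0.54, Hba-a1 at -0.46; summed 5.37 and 4.90). The part of these cells in the differences of Trib3, Chac1, Asns or Atf5 was not tested. In such mixed samples fewer cells of a type and less RNA per cell cannot be told apart.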

How the data were processed

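Each of the 2 samples was hybridised to 1 Agilent array with Cy3, after TRIzol extraction and low-input amplification, per the labels' protocols. Intensity per spot came from Agilent Feature Extraction 10.7.1.1 per the file headers (9.5.1.1 per the submitters' processing notes), with spatial detrending and no local background subtraction. The authors also deposited a table of intensities on a linear scale whose sorted columns differed by at most 0.813 units (median 37.7 in each); its scaling steps are not given in the sources used here, and it carried no centring.

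The log2 of the processed intensity was averaged over spots without outlier flags (139 and 169 gene spots left out), and each array's 75th percentile over gene probes (519 units on the CSE-WT array, 540 on the CSE-KO array) was subtracted. A probe counted as measured when flagged well above background on both arrays (57.0% and 59.6% of probes were on each). A gene took its brightest measured probe. Names came from RefSeq by accession (27235 probes), symbol (3581) or older symbol (565), otherwise from the files (24300). Scripts ran in Python 3.11.15 and limma 3.58.1 and were tested on simulated data.

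Named are all 10 genes with every probe, in each related list the members past 2-fold and up to 4 with the largest absolute difference (other list genes named, such as Gpt2 and Bcl2l11, were chosen after their values were seen), Cth, and the first 2 measured markers of each cell type, of which 1 is not reported here. The genes, lists, motifs and the 1.2-fold size were chosen with earlier results of these data, or the promoter letters, known.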

Additional observations from a re-analysis of the deposited data

How the results depend on the processing

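Alternatives were the median, quantile or cyclic loess scaling, normexp background correction, the authors' deposited table, outlier spots kept, the mean of a gene's probes, no filter on dim probes, and leaving out probes in local patches. In all 9, 7 of the 10 stress genes were higher, 0 passed 2-fold, and their median lay between 0.13 and 0.19. Of the 90 single-gene values, 9 moved by over 1 spot SD and 0 changed sign. Not all of the 90 were free to move. The settings for dim probes, patch probes and the mean of probes could not alter a gene with 1 measured probe outside patches. The deposited table also came close to quantile scaling (Chac1 at 0.656 and 0.655), so they are hardly separate checks. Trib3 ranged from 0.69 to 0.79, Chac1 from 0.61 to 0.66, Ddit4 from 0.30 to 0.37, Asns from -0.44 to -0.37 and Atf5 from -0.43 to -0.36. Over all measured genes the counts past 2-fold were 159 higher and 197 lower. They came to 36 and 97 with normexp, where higher genes made up 27.1% of those past 2-fold against 44.7%, and to 1128 and 1436 without the filter on dim probes. Without patch probes 157 were higher and 116 lower (57.5% higher). Precision is limited by the number of arrays and, for Atf3, by its dim signal. No paired analysis was possible because each genotype had 1 array.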
